A study of Mus musculus with 24 samples.

Results

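The insulin-like growth factor (IGF) binding protein and receptor genes described here are Igfbp2, Igfbp3, Igfbp4, Igfbp5, Igfbp6, Igfbp7, Igf1r and Igf2r, 8 of the 54532 genes in the expression table. They were taken by gene name, and the family was picked after Igfbp7 had been seen to be almost lost in serine- and glycine-free knockout monocultures. The values of those monocultures therefore chose the genes, and every comparison that includes them is given below as a description with no test. Of the 8 genes, 5 reached an FPKM of 1 or more in 3 or more libraries, the filter on low values, and were tested, and 3 (Igfbp2, Igfbp5 and Igfbp6) did not pass it. FPKM counts fragments for each kilobase of a gene after scaling for depth.

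RNA was sequenced from a cell line of mouse pancreatic ductal adenocarcinoma (PDAC), HY19636, in a series about hepatocytes as a source of serine in liver metastasis. There were 8 groups of 3 libraries. Phgdh knockout (KO) cells were cocultured with hepatocytes in serine/glycine-free medium or in medium with both amino acids, or were grown as monocultures in the same media. Phgdh wild-type (WT) cells were kept in the same 4 conditions. All 24 libraries came from the same cell line, and Phgdh codes for the enzyme that starts serine synthesis from a glycolytic intermediate. The sources used here do not give how Phgdh was edited, whether the KO cells are 1 clone, or how the cancer cells were parted from the hepatocytes.

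IGF1 and IGF2 are peptide hormones that signal through the receptor tyrosine kinase encoded by Igf1r, which acts through insulin receptor substrates and the PI3K-AKT pathway. The classical binding proteins IGFBP1 to IGFBP6 hold IGFs with high affinity and set how much ligand reaches the receptor, and proteases such as PAPP-A release it. IGFBP7 shares the N-terminal domain but binds IGFs weakly, and is a secreted matrix-associated protein. The receptor encoded by Igf2r does not signal as a kinase: it takes IGF2 to lysosomes and sorts enzymes that carry mannose 6-phosphate. In the body the liver is the main source of circulating IGF1.

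The libraries held 15740081 to 23479425 reads assigned to genes. Transcript of Phgdh, the targeted gene, averaged 483 ± 96.6 FPKM in KO and 922 ± 16.6 FPKM in WT monocultures with serine and glycine (SD, n = 3 each). It was lower in KO cells by limma's test there (log2 change −0.95 ± 0.12, adjusted p = 1.85e-06) and in both coculture media. In serine/glycine-free monocultures it averaged 695 ± 68.6 FPKM in KO and 800.4 ± 15.5 FPKM in WT cells. The transcript remained abundant in KO cells, with 874 FPKM in cocultures with serine and glycine, so its level does not by itself verify the genotype labels. Ductal and epithelial markers were expressed (7 of 8 past the filter, summed FPKM of 2240.9 to 4147.9 in cocultures and 1137.6 to 4603.9 in monocultures), with Epcam under the filter. Hepatocyte markers were near 0 also in coculture: 0 of 13 passed the filter, their summed FPKM was 0.267 to 1.10 in the 12 cocultures and 0.0817 to 1.16 in the 12 monocultures, and 5 of them were at 0 in all 24 libraries. The sum over the defining hepatocyte markers Alb, Apoa1, Ttr and Cps1 reached at most 0.203 FPKM in cocultures and 0.126 FPKM in monocultures. Of 8 endothelial markers Vwf passed the filter (summed FPKM of 0.749 to 2.50 in cocultures and 0.264 to 2.45 in monocultures), and 0 of 6 acinar and islet markers did. Replicate 1 of the KO monocultures with serine and glycine and replicate 2 of the serine/glycine-free KO cocultures stood furthest from their groups (mean correlation with the other replicates 0.9685 and 0.9788, across genes), and results that turn on them are given without them.

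The promoters of the 3 expressed binding protein genes are shown because these genes varied most across the groups. Each is 300 bases of RefSeq sequence (GRCm38.p6), from 250 bases before to 50 after the start of the gene, read 5′ to 3′ on the gene's strand. Capitals mark matches, on either strand, to GGGCGG (the GC box), ACGTG (the core of the hypoxia response element) or TATAAA (the TATA box). The Igfbp7 promoter lies at chr5:77407996-77408295 on the minus strand, that of Igfbp3 at chr11:7213874-7214173 on the minus strand, and that of Igfbp4 at chr11:99040994-99041293 on the plus strand.
Igfbp7: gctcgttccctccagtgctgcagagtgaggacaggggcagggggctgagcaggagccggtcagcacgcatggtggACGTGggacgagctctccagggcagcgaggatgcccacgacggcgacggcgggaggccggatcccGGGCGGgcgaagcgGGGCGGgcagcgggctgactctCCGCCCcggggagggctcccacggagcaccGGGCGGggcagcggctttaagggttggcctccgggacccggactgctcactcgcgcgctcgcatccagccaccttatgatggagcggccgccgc
Igfbp3: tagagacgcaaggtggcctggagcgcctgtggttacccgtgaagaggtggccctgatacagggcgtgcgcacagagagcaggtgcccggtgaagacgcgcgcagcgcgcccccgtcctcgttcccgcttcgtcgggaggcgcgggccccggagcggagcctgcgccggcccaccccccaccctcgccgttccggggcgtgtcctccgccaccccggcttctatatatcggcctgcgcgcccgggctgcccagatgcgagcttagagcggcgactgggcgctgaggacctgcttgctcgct
Igfbp4: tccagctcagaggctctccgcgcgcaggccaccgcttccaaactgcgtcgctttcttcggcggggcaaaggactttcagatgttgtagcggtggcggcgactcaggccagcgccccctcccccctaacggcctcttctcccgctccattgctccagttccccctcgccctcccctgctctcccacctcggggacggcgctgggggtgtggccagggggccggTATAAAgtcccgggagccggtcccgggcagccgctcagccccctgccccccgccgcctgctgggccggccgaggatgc

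The Igfbp7 promoter held 4 matches to GGGCGG, which 35.7% of all 32851 promoters held, and 1 match to ACGTG, which 19.6% held. The Igfbp4 promoter held 1 match to TATAAA (13.6% of all promoters), 28 bases before the start. None of the 7 motifs searched matched within the Igfbp3 window. The other 4 were TGANTCA (AP-1, 7.81% of all promoters), GTAAACA (FoxO, 3.65%), GGAATG (TEAD, 14.7%) and TGATGNAA (ATF4 composite site, 3.97%), searched on both strands, and none of these matched in the 3 promoters. Their G and C content was 73.3% for Igfbp7, 71.7% for Igfbp3 and 71.3% for Igfbp4, against a median of 52.7% over all promoters. CpG dinucleotides numbered 33, 37 and 27 in the same order, against a median of 7. The promoters of both receptors were also rich in CpG (48 for Igf1r and 34 for Igf2r), and among the genes close to undetected the 2 promoters of Igfbp2 held 18 and 14, that of Igfbp5 10 and that of Igfbp6 8.

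Igfbp3, Igfbp7 and Igfbp4 were the most abundant of the family on the per-length FPKM scale, and within each condition all 3 were lower in every KO library than in any WT library. Igfbp3 ranged over 29.7 to 313 FPKM in KO and 172 to 546 FPKM in WT libraries, and the KO cocultures lay above the WT monocultures. Igfbp7 ranged over 0.778 to 37.7 FPKM in the 12 KO libraries and 194 to 309 FPKM in the 12 WT libraries. Igfbp4 spanned 26.9 to 59.6 FPKM in KO and 88.7 to 116 FPKM in WT libraries. In the order of group means the lowest was the serine/glycine-free KO monoculture for Igfbp7, Igfbp3 and Igf1r, the serine/glycine-free KO coculture for Igfbp4 and the KO monoculture with serine and glycine for Igf2r. No neighbours in that order overlapped for Igfbp3. For Igfbp7 the KO cocultures and monocultures with serine and glycine overlapped, as did the 2 WT monoculture groups. For Igfbp4 overlap joined the 3 lowest KO groups, the 2 WT monoculture groups and the 2 WT coculture groups. For Igf2r the 3 groups next above the WT monoculture with serine and glycine overlapped their neighbours, and so did the serine/glycine-free WT monoculture and the WT coculture with both amino acids. The receptors varied less: Igf2r lay between 12.7 and 23.0 FPKM and Igf1r between 3.75 and 9.80 FPKM over all 24 libraries.

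**Figure D1:**
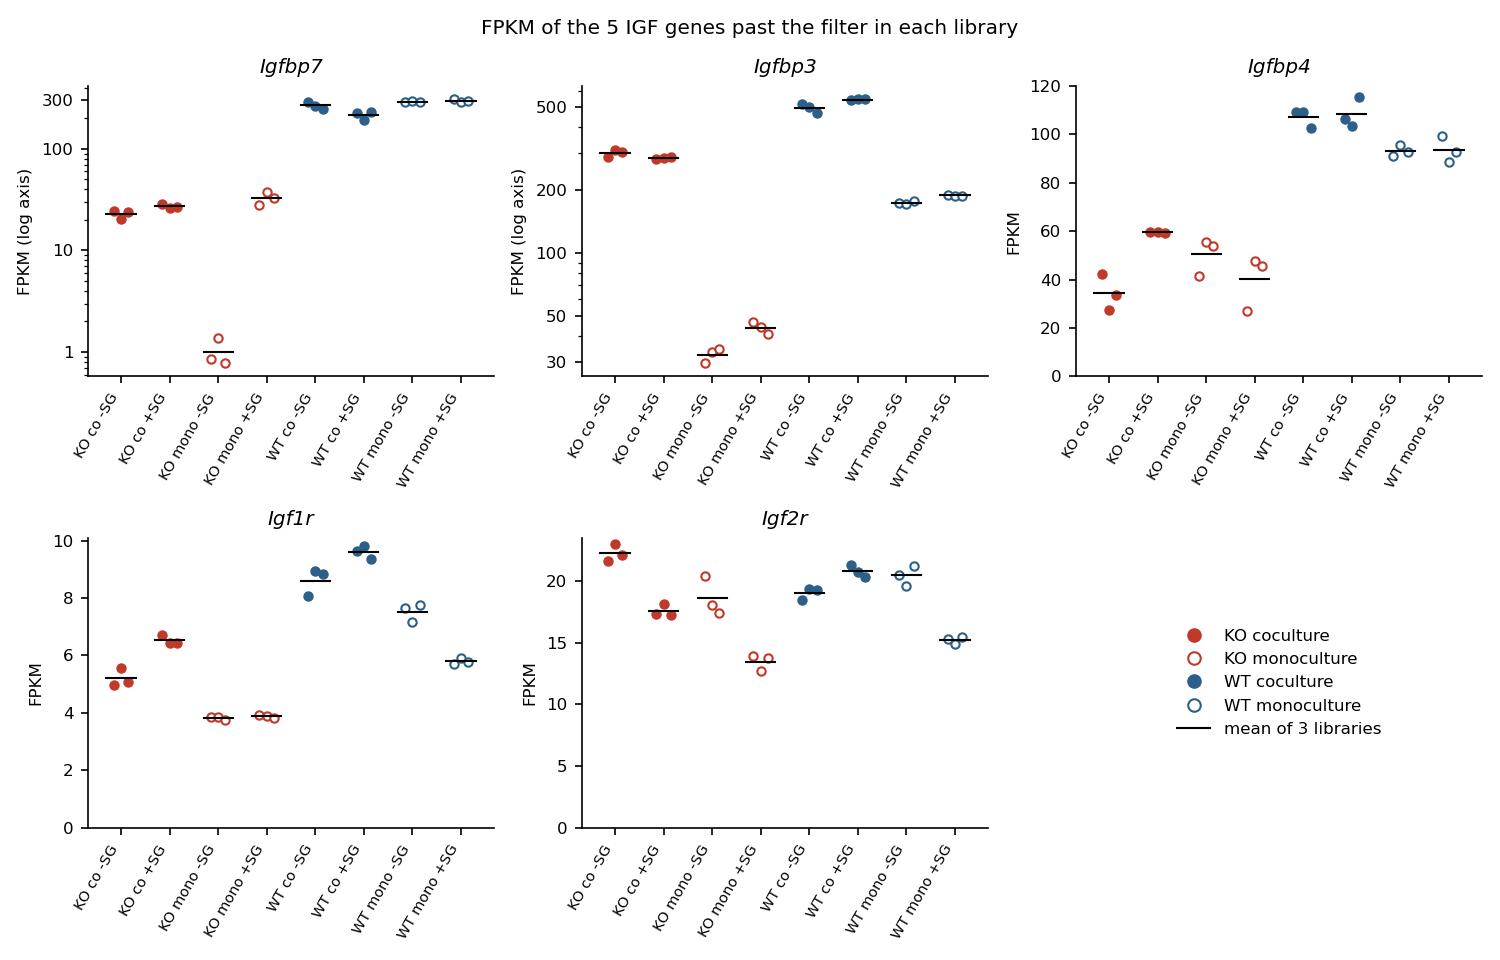
FPKM (y axis, logarithmic for Igfbp7 and Igfbp3) of the 5 genes past the filter in each library of the 8 groups (x axis; co, coculture; mono, monoculture; −SG and +SG, without and with serine and glycine); red, KO; blue, WT; filled, coculture; open, monoculture; bars, means of 3 libraries. Igfbp7 is at about 1 FPKM in the serine/glycine-free KO monocultures only and at 20.4 FPKM or more elsewhere, Igfbp3 is higher in coculture in both genotypes, and Igfbp4 is lower in KO cells throughout.

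The genotype comparisons asked how KO and WT cells differed in each of the culture settings. With serine and glycine in monoculture, all 5 tested genes were lower in KO cells (adjusted p under 0.05), where 21.1% of the 12061 tested genes were called lower. In coculture with serine and glycine the 5 were again lower, against 22.0% of all genes. In serine/glycine-free coculture 4 were lower and Igf2r was higher, where 27.4% of all genes were called lower and 26.3% higher. The median log2 change of the 5 genes was −1.24, −0.85 and −0.71 in these comparisons, and that of all tested genes lay between −0.01 and 0.00. The 3 comparisons share no library. Cd68, the only one of 8 Kupffer cell and macrophage markers past the filter, was lower in KO cells in the same 3 comparisons (−1.14, −0.88 and −0.89), while Adgre1 and C1qa, which define these cells, were at 0 in all 24 libraries. The summed FPKM of the 8 markers was 3.28 to 4.89 in KO and 7.26 to 8.70 in WT cocultures, and 0.521 to 4.09 in KO and 6.88 to 9.73 in WT monocultures, and their part in the genotype differences was not tested.

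Withdrawal of serine and glycine moved few of the 5 genes in WT cells. Igf1r and Igf2r rose on withdrawal in WT monoculture, where 1.37% of all genes were called higher. In WT coculture limma called 0 of the 5 and 0.738% of all genes: 4 of the 5 had an unadjusted p under 0.05, and limma voom on recovered reads also called 0. In KO coculture Igf2r rose and Igfbp4 and Igf1r fell, against 15.5% of all genes called higher and 14.4% lower.

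The coculture comparisons asked what the presence of hepatocytes changed. In WT cells with serine and glycine Igfbp3, Igf1r and Igf2r were higher in coculture than in monoculture (16.3% of all genes) and Igfbp7 was lower (14.9%). In KO cells with serine and glycine Igfbp3, Igfbp4, Igf1r and Igf2r were higher (20.1%). In serine/glycine-free WT cells Igfbp3 and Igf1r were higher (14.9%). Bulk RNA cannot tell apart fewer cells of a type from less RNA per cell, and comparisons that share a group, such as withdrawal and coculture in WT monocultures, are not independent.

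**Figure D2:**
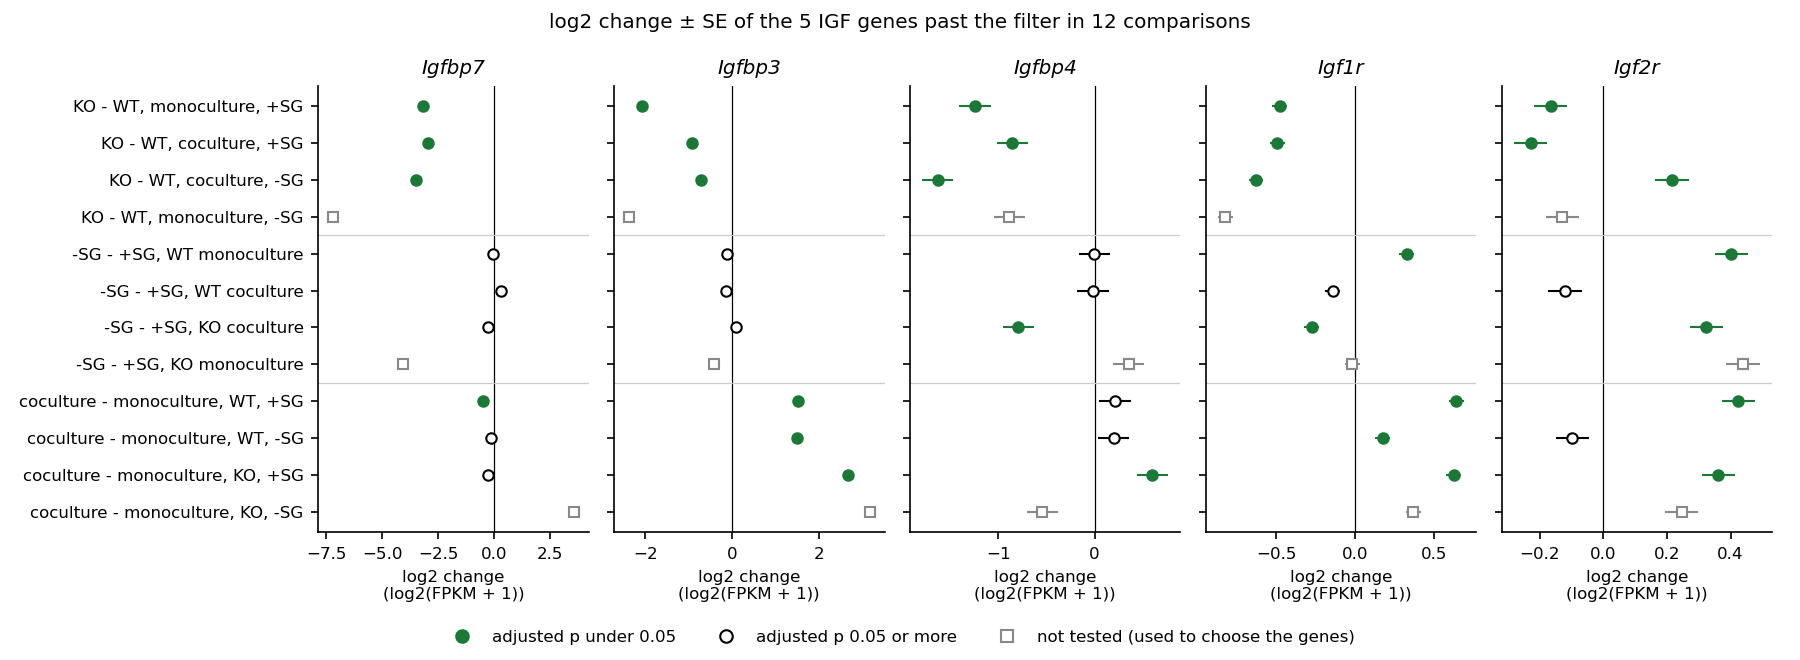
The log2 change (x axis, on the log2(FPKM + 1) scale, each panel with its own range) with its SE in 12 comparisons (y axis; −SG and +SG, without and with serine and glycine): green, adjusted p under 0.05; open circles, 0.05 or more; grey squares, comparisons that include the serine/glycine-free KO monocultures and were not tested. All genotype changes lie left of 0 except that of Igf2r in serine/glycine-free coculture (0.22). Among the tested coculture comparisons Igfbp3 has the largest rises (1.52, 2.68 and 1.502), and among those not tested Igfbp7 has the largest (3.59).

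Igfbp7 (ENSMUSG00000036256; chr5:77349240-77408041, minus strand, GRCm38; protein coding) is the gene whose loss chose the family. It had 0.847, 1.37 and 0.778 FPKM in the serine/glycine-free KO monocultures, from 18, 32 and 15 reads. In KO monocultures with serine and glycine it had 27.8, 37.7 and 33.0 FPKM, and in serine/glycine-free KO cocultures 24.5, 20.4 and 24.02 FPKM. So within KO cells the gene stood 32.8-fold lower on withdrawal in monoculture, and 23.0-fold higher in coculture than in monoculture when the medium was free of both amino acids. WT cells had 290.5, 299 and 289 FPKM in serine/glycine-free monoculture, 293-fold above the KO mean. These 3 contrasts, with log2 changes of −4.08, 3.59 and −7.21, are descriptions, since they rest on the values that chose the gene. Over all genes, 67.2%, 69.6% and 78.6% did not overlap between the libraries compared in the 3 contrasts.

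In the other 6 KO and WT groups that were tested, Igfbp7 remained far lower in KO cells. With serine and glycine, KO cocultures had 28.7, 26.1 and 27.0 FPKM and WT cocultures 224, 194 and 229 FPKM, and WT monocultures 309, 288 and 296 FPKM. The KO level was 9.07-fold lower in monoculture (log2 change −3.15 ± 0.11, adjusted p = 2.29e-14) and 7.91-fold lower in coculture (−2.94 ± 0.11, adjusted p = 5.84e-14). In serine/glycine-free coculture it was 11.7-fold lower in KO cells (−3.49 ± 0.11, adjusted p = 3.2e-15), where WT cells had 288, 266 and 249 FPKM. All 3 values were called under each of 16 alternatives.

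Outside KO monoculture the withdrawal change of Igfbp7 did not pass the test: it was −0.24 in KO coculture (adjusted p = 0.0953), −0.02 in WT monoculture (adjusted p = 0.978) and 0.31 in WT coculture (adjusted p = 0.279). The difference between the withdrawal changes in KO and WT coculture was −0.55 ± 0.15 and did pass it (adjusted p = 0.021), but 5 of 22 alternatives lost that call, among them a pseudocount of 0.1 (adjusted p = 0.0663) and leaving out replicate 2 of the serine/glycine-free KO cocultures (−0.47, adjusted p = 0.0643). Here 14.4% of all genes were called. Leaving out KO coculture replicate 1 with serine and glycine (adjusted p = 0.0531), serine/glycine-free WT coculture replicate 1 (0.0603) or WT coculture replicate 2 with serine and glycine (0.0623) lost it too. Coculture lowered Igfbp7 in WT cells with serine and glycine (216 ± 18.9 FPKM in coculture, 297 ± 10.3 FPKM in monoculture; −0.47 ± 0.11, adjusted p = 0.00237). In KO cells in that medium the same change was −0.25 (adjusted p = 0.0733), and −0.36 with a call (adjusted p = 0.0127) without replicate 1 of the KO monocultures. In serine/glycine-free WT cells it was −0.13 (adjusted p = 0.413), and −0.34 with a call (adjusted p = 0.0111) with quantile normalization. The change in KO cells was also called by limma voom on recovered reads and by quantile normalization (adjusted p = 0.0388 and 0.0138). The 3′ end of Igfbp7 overlaps Polr2b, which lies on the opposite strand at 14.2 to 20.6 FPKM, and the antisense RNA Gm34648 lies within it at 0 to 0.792 FPKM. The sources used here do not give the use of strand in counting.

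Igfbp3 (ENSMUSG00000020427; chr11:7206086-7213923, minus strand), the main carrier of IGFs in serum, rose in coculture wherever this was tested. KO cocultures with serine and glycine had 283, 285 and 289 FPKM, and KO monocultures 46.7, 44.0 and 41.1 FPKM. WT cocultures in that medium had 539.9, 546 and 545 FPKM, and WT monocultures 190.2, 188 and 188 FPKM. The replicates lay close together and no groups overlapped. Coculture raised Igfbp3 6.50-fold in KO cells (2.68 ± 0.05, adjusted p = 6.38e-18) and 2.88-fold in WT cells (1.52 ± 0.05, adjusted p = 2.57e-14). The difference between these changes was 1.15 ± 0.08 on the log2 scale (adjusted p = 2.86e-08) and was called under all 22 alternatives, against 10.4% of all genes. In this interaction limma called none of the other 4 tested genes, whose differences were −0.06 to 0.39.

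Without serine and glycine, WT cocultures had 519, 499 and 470.0 FPKM of Igfbp3 and WT monocultures 173, 172 and 178 FPKM (1.502 ± 0.05, adjusted p = 4e-14). Serine/glycine-free KO cocultures had 289, 313 and 306 FPKM and the monocultures 29.7, 33.4 and 34.6 FPKM, 9.30-fold apart, which is given as a description. The KO level was below the WT level throughout: Igfbp3 was 4.30-fold lower in KO than in WT monocultures with serine and glycine (−2.08 ± 0.05, adjusted p = 3.82e-16), 1.90-fold lower in the cocultures (−0.93 ± 0.05, adjusted p = 7.84e-11) and 1.64-fold lower in serine/glycine-free cocultures (−0.71 ± 0.05, adjusted p = 2.04e-09). The withdrawal change of Igfbp3 was −0.11 in WT monoculture (adjusted p = 0.422), −0.13 in WT coculture (0.419) and 0.08 in KO coculture (0.258), none of which passed the test. With quantile normalization the value in KO coculture was 0.20 and was called (adjusted p = 0.0178). The difference between the KO and WT changes in coculture was 0.22 (adjusted p = 0.0649), and voom (0.045), quantile normalization (0.0178) and leaving out replicate 1 of the serine/glycine-free KO cocultures (0.0312) called it. Markers of hepatocytes, which can express IGF-binding proteins, were near 0 in these cocultures, as given above. Pdgfra, the only one of 9 stellate cell and fibroblast markers past the filter, was also higher in coculture (0.61 in KO and 0.46 in WT cells with serine and glycine). The summed FPKM of these markers was 1.70 to 2.58 in cocultures and 0.347 to 1.43 in monocultures, with Col3a1 and Lrat at 0 in all 24 libraries, and their part in the Igfbp3 change was not tested.

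Igfbp4 (ENSMUSG00000017493; chr11:99041244-99054392, plus strand) encodes an inhibitor of IGF action that PAPP-A cleaves. Serine/glycine-free KO cocultures had 42.2, 27.5 and 33.8 FPKM and KO cocultures with both amino acids 59.6, 59.5 and 59.3 FPKM, so that these groups did not overlap. Igfbp4 fell on withdrawal in KO coculture (−0.79 ± 0.16, adjusted p = 0.00133), while in WT coculture, at 109, 109 and 103 FPKM without and 106, 103 and 116 FPKM with serine and glycine, the change was −0.02 (adjusted p = 0.996). The difference between the 2 changes was −0.77 ± 0.23 (adjusted p = 0.0306), and 10 of 22 alternatives lost the call. Without replicate 2 of the serine/glycine-free KO cocultures it was −0.62 (adjusted p = 0.0939). Leaving out any of 8 other libraries one at a time, and testing with no filter, also lost it (adjusted p of 0.0549 to 0.0709).

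Serine/glycine-free KO monocultures had 41.6, 55.5 and 54.0 FPKM of Igfbp4 and KO monocultures with both amino acids 26.9, 47.8 and 45.7 FPKM. Replicate 1 was the lowest of both groups. WT monocultures had 91.2, 95.6 and 92.6 FPKM without and 99.2, 88.7 and 92.7 FPKM with serine and glycine. The KO level was 2.33-fold lower than WT in monoculture with serine and glycine (−1.24 ± 0.16, adjusted p = 4.34e-06), 1.82-fold lower in coculture (−0.85 ± 0.16, adjusted p = 0.000259) and 3.10-fold lower in serine/glycine-free coculture (−1.63 ± 0.16, adjusted p = 7.82e-08). In medium with both amino acids Igfbp4 rose in coculture in KO cells (0.60 ± 0.16, adjusted p = 0.00605). That value was 0.34 without replicate 1 of the KO monocultures, and the call was lost with only the groups compared in the fit (adjusted p = 0.0975). In WT cells its coculture change was 0.21 in medium with both amino acids (adjusted p = 0.361) and 0.20 in medium free of them (adjusted p = 0.413), and both were called with only the groups compared in the fit (adjusted p = 0.034 and 0.007). The change of 0.35 on withdrawal in KO monoculture, a description, was 0.09 without replicate 1 of the cultures with serine and glycine.

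Igfbp6, Igfbp5 and Igfbp2 were close to undetected. Igfbp6 (ENSMUSG00000023046; chr15:102144362-102149511, plus strand), which prefers IGF2, had 51 reads over the 6 KO cocultures, 18 over the 6 KO monocultures, 4 over the 6 WT cocultures and 3 over the 6 WT monocultures. Its highest values were 0.725 FPKM in KO and 0.202 FPKM in WT libraries, and 11 of 12 KO libraries but 4 of 12 WT libraries held a read. Igfbp5 (ENSMUSG00000026185; chr1:72857932-72874884, minus strand) had 3 reads in 12 KO and 10 in 12 WT libraries. Igfbp2 (ENSMUSG00000039323; chr1:72824503-72852474, plus strand) had 1 read in 12 KO and 4 in 12 WT libraries. None of the 3 was tested. A count of 0 allows up to 3 reads in a library, which is 0.0668 to 0.102 FPKM for Igfbp2, 0.0205 to 0.0313 FPKM for Igfbp5 and 0.111 to 0.169 FPKM for Igfbp6 (counting error only). Igfbp2 and Igfbp5 are neighbours on chromosome 1 with 5457 bases between them, and both were near 0. Igfbp3 lies 3539 bases from Igfbp1, which was at 0 in all 24 libraries.

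**Figure D3:**
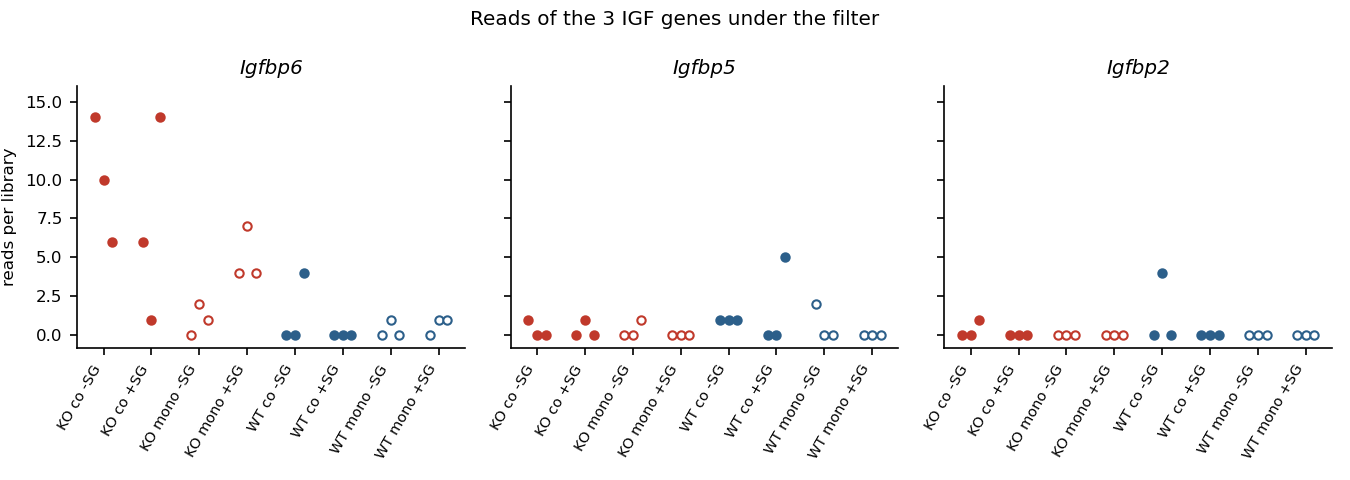
Reads per library (y axis) of Igfbp6, Igfbp5 and Igfbp2 in the 8 groups (x axis; colours and fill as in the plot of FPKM by library: red, KO; blue, WT; filled, coculture; open, monoculture). Igfbp6 reaches 14 reads in KO cocultures and at most 4 in WT libraries, and the other genes stay at 5 reads or fewer.

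Igf1r (ENSMUSG00000005533; chr7:67952827-68233668, plus strand), the signalling receptor, was lowest in KO monocultures, at 3.85, 3.85 and 3.75 FPKM without and 3.93, 3.89 and 3.82 FPKM with serine and glycine, and these groups overlapped. It was highest in WT cocultures, at 8.05, 8.93 and 8.84 FPKM without and 9.64, 9.80 and 9.34 FPKM with both amino acids. KO cocultures had 4.98, 5.58 and 5.09 FPKM without and 6.72, 6.44 and 6.42 FPKM with them. In the order of the 8 group means the 2 KO monoculture groups were the only neighbours whose libraries overlapped. Igf1r was 1.49-fold lower in KO monocultures with serine and glycine than in WT ones (−0.48 ± 0.05, adjusted p = 1.32e-07), 1.47-fold lower in coculture (−0.49 ± 0.05, adjusted p = 6.71e-08) and 1.65-fold lower in serine/glycine-free coculture (−0.63 ± 0.05, adjusted p = 1.44e-09).

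Withdrawal raised Igf1r in WT monoculture, to 7.65, 7.15 and 7.75 FPKM without serine and glycine, against 5.71, 5.90 and 5.77 FPKM with them (0.33 ± 0.05, adjusted p = 0.000986). In KO coculture it lowered Igf1r (−0.28 ± 0.05, adjusted p = 0.000261), and in WT coculture the change was −0.14 (adjusted p = 0.249). In KO monoculture the described change was −0.02. The withdrawal change in WT coculture less that in WT monoculture was −0.47 ± 0.07 (adjusted p = 0.000689), where 1.67% of all genes were called. Coculture raised Igf1r with serine and glycine by 0.62 in KO cells (adjusted p = 2.86e-09) and 0.64 in WT cells (adjusted p = 2.09e-09). In serine/glycine-free WT cells the rise was 0.17 ± 0.05 (adjusted p = 0.00917). It lost its call without replicate 2 of the serine/glycine-free WT cocultures (adjusted p = 0.0515) or monocultures (adjusted p = 0.0562).

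Igf2r (ENSMUSG00000023830; chr17:12682406-12769664, minus strand), the IGF2 and mannose 6-phosphate receptor, was the one gene whose genotype difference changed sign. Serine/glycine-free KO cocultures had 21.6, 23.0 and 22.1 FPKM and the WT cocultures 18.5, 19.3 and 19.2 FPKM (0.22 ± 0.05, adjusted p = 0.0019). With serine and glycine KO cocultures had 17.3, 18.1 and 17.2 FPKM and WT cocultures 21.3, 20.7 and 20.3 FPKM (−0.23 ± 0.05, adjusted p = 0.00144). No libraries overlapped in either comparison. In coculture the withdrawal changes were 0.32 ± 0.05 in KO cells (adjusted p = 0.000162) and −0.12 in WT cells (adjusted p = 0.464). They differed by 0.45 ± 0.07 (adjusted p = 0.000625), a call that all 22 alternatives kept.

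In monoculture Igf2r had 20.4, 18.1 and 17.4 FPKM in KO cells without and 13.9, 12.7 and 13.8 FPKM with serine and glycine. The WT monocultures had 20.5, 19.6 and 21.2 FPKM without and 15.3, 14.9 and 15.4 FPKM with them. Both genotypes were thus higher without serine and glycine: the change passed the test in WT cells (0.40 ± 0.05, adjusted p = 0.000349) and was 0.44, as a description, in KO cells. In WT cells the withdrawal change in coculture less that in monoculture was −0.52 ± 0.07 (adjusted p = 0.000687). The KO level was 1.13-fold lower than WT in monoculture with serine and glycine (−0.17 ± 0.05, adjusted p = 0.015). That call was lost with only the 2 groups in the fit (adjusted p = 0.107), without replicate 2 of the KO monocultures (adjusted p = 0.0742) and without replicate 3 of the WT monocultures (adjusted p = 0.0508). Coculture raised Igf2r with serine and glycine, by 0.36 in KO cells (adjusted p = 1.75e-05) and 0.43 in WT cells (adjusted p = 3.12e-06). In WT cells without them the change was −0.10 (adjusted p = 0.181). Igf2r overlaps Airn, an antisense RNA on the opposite strand, which was listed at 0.227 to 3.01 FPKM.

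The IGF ligands were not detected in these libraries. Igf1, Igf2, Ins1 and Igfbp1 were at 0 in all 24, where 3 reads in a library would be at most 0.0190 FPKM for Igf1 and 0.0329 FPKM for Igf2. Igfals, the serum partner of IGFBP3, reached 0.0791 FPKM at most, and Ins2 and Insrr 0.140 and 0.185 FPKM. Of the 8 ligands and other partners listed, Insr, the insulin receptor and nearest relative of Igf1r, passed the filter. It was lower in KO cells (−0.19, −0.38 and −0.33 in monoculture with serine and glycine, coculture with them and coculture without them; adjusted p = 0.0118, 2.59e-05 and 8.81e-05) and rose on withdrawal in WT monoculture (0.36 ± 0.06, adjusted p = 0.00248), as Igf1r and Igf2r did.

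Over 6 lists of the wider pathway 47 of 73 genes passed the filter. In KO against WT monocultures with serine and glycine 13 of the 47 were higher and 11 lower, against 21.5% of all tested genes higher and 21.1% lower. In coculture with both amino acids 11 were higher and 12 lower (21.8% and 22.0% of all genes), and without them 14 were higher and 17 lower (26.3% and 27.4%). Their median log2 changes were −0.05, 0.04 and −0.00. Of the 4 tested genes for other proteins with an IGFBP domain (Crim1, Ctgf, Cyr61 and Htra1), 3 were lower in each comparison. Cyr61 and Ctgf, matricellular proteins with that domain at their N-terminus, were lower in KO cells in all 3 comparisons. Cyr61 averaged 46.3 ± 4.16 FPKM in KO and 135 ± 2.16 FPKM in WT monocultures with serine and glycine (−1.52 ± 0.06, adjusted p = 4.19e-13), and its changes in coculture were −1.80 with and −1.92 without them. Ctgf changed by −1.18, −2.002 and −1.70. Crim1, a membrane protein with an IGFBP domain, was also lower, by 0.71 on the log2 scale in serine/glycine-free coculture. Among the IGF2 mRNA-binding proteins 3 of 3 were higher in KO cells in both comparisons with serine and glycine, and 2 of 3 in serine/glycine-free coculture. Igf2bp3, counted in each, passed the filter only through the KO libraries (at most 0.998 FPKM in WT ones), so its difference is a description. Of 10 tested genes of mannose 6-phosphate sorting, 4, 3 and 4 were higher and 1 was lower in each comparison. Of 24 tested signalling genes below IGF1R, 5 were higher and 5 lower in both comparisons with serine and glycine, and 7 higher and 9 lower without. Of 6 tested proteases and regulators of the binding proteins, 1, 0 and 1 were higher and 1, 2 and 3 lower.

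Grb10, an imprinted adaptor that binds and restrains the insulin and IGF1 receptors, went the other way. It averaged 1.13 ± 0.209 FPKM in KO monocultures with serine and glycine and was at 0 in the 3 WT ones, at least 61.5-fold higher against a floor of 3 reads per library. In coculture with serine and glycine it averaged 1.49 ± 0.145 FPKM in KO cells and had 1 read over the 3 WT libraries. Grb10 passed the filter only through the KO libraries, so its difference is given as a description, although it is among the genes counted as higher. The protease genes Mmp14 (−1.03) and Htra1 (0.91), and Foxo4 (−0.76), a transcription factor that AKT holds out of the nucleus, changed in monoculture with serine and glycine. Socs2, a brake on cytokine and growth hormone signalling, was higher in both coculture comparisons (0.72 with serine and glycine and 0.73 without). Gnptg and Gnptab encode subunits of the enzyme that makes the mannose 6-phosphate tag: in coculture with serine and glycine Gnptg was higher (0.76) and Gnptab lower (−0.63).

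Coculture raised Stc1, a stanniocalcin that inhibits PAPP-A, more than any other gene of these lists. Pappa, which encodes PAPP-A, had 0 reads in all 8 groups. Its relative Pappa2 had 1 read, in the serine/glycine-free KO cocultures. Stc1 averaged 17.1 ± 0.123 FPKM in KO cocultures and 1.09 ± 0.208 FPKM in KO monocultures with serine and glycine (3.12 ± 0.09, adjusted p = 5.84e-16). WT cocultures in that medium averaged 21.3 ± 0.798 FPKM and WT monocultures 1.21 ± 0.199 FPKM (3.34 ± 0.09, adjusted p = 1.87e-16), and without serine and glycine the change in WT cells was 3.10. In serine/glycine-free KO cells it averaged 13.9 ± 2.12 FPKM in coculture and 0.0503 ± 0.0287 FPKM in monoculture, which is a description. Stc2, its relative, was lower in coculture (−0.59 in KO and −0.45 in WT cells with serine and glycine). Htra1, a serine protease that cleaves IGF-binding proteins, rose by 0.83 in KO and 1.57 in WT cells in the same medium. Of the 47 genes, 13 were higher and 11 lower in coculture in KO cells with serine and glycine, against 20.1% of all genes higher and 19.9% lower. In WT cells 11 were higher and 7 lower with both amino acids (16.3% and 14.9% of all genes), and 6 higher and 10 lower without them (14.9% and 13.1%). On withdrawal 6 were higher and 10 lower in KO coculture (15.5% and 14.4%), led by Ctgf (0.69), Gnptab (0.60) and the adaptor Irs2 (−0.59). In WT cells withdrawal moved 2 in monoculture, Insr and Cyr61 (0.25), and 1 in coculture, Ctgf (0.38), against 1.63% and 0.738% of all genes.

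**Figure D4:**
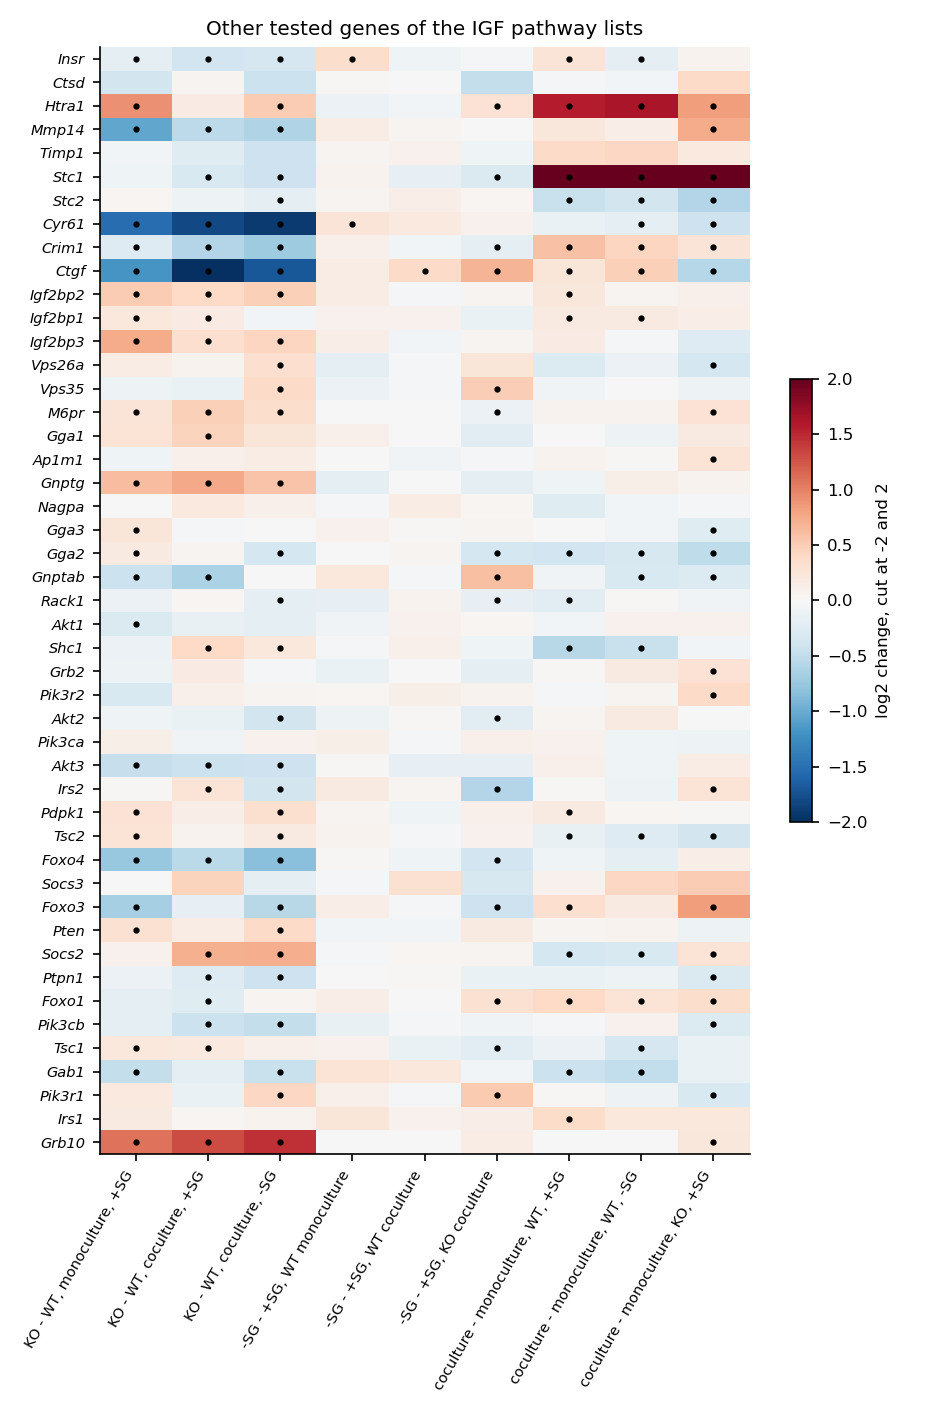
The log2 change (colour, limited to −2 and 2) of the 47 other tested genes of the IGF pathway lists (rows) in 9 tested comparisons (columns; −SG and +SG, without and with serine and glycine); dots mark an adjusted p under 0.05. Cyr61 and Ctgf are blue and Grb10 red in all 3 genotype columns, and Stc1 is dark red in the 3 coculture columns.

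The genes most like Igfbp7 over the 8 group means were Idh2, a mitochondrial isocitrate dehydrogenase (Pearson r = 0.999), the transcription factor gene Tead2 (0.995) and the serpin gene Serpinb6b (0.995). Idh2 averaged 5.14 FPKM and Tead2 1.23 FPKM in serine/glycine-free KO monocultures, the lowest of the 8 groups for both. Igfbp3 was most like Pmaip1, a pro-apoptotic BH3-only gene (0.993), Igfbp4 most like Ppp1r9b (0.993), and Igf1r most like the histone demethylase gene Kdm5c (0.986). These are likenesses over 8 points, chosen from the 12061 genes for being the highest, and are descriptions. Among the 5 genes themselves r was 0.883 for Igfbp3 with Igf1r, 0.755 for Igfbp4 with Igfbp7 and 0.0365 for Igfbp7 with Igf2r.

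**Figure D5:**
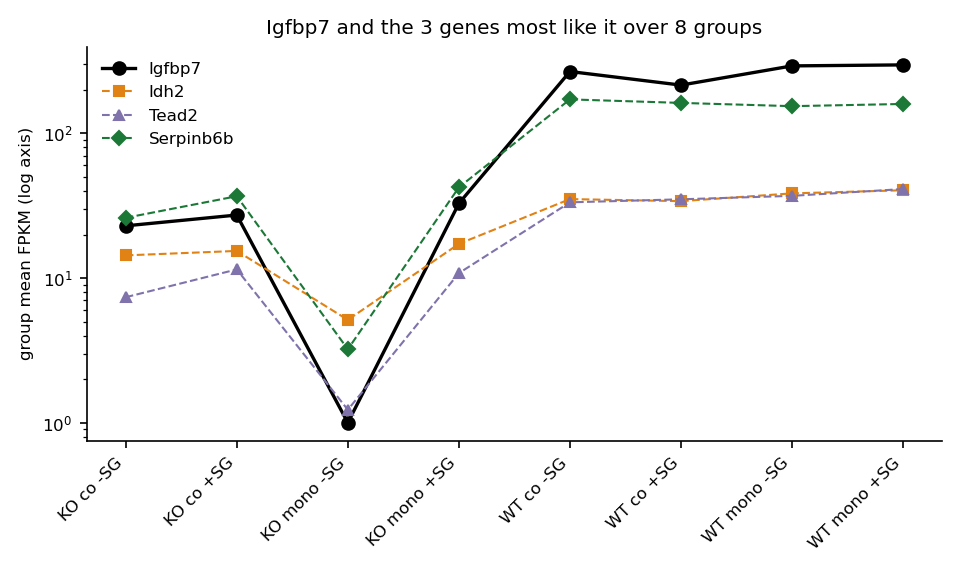
Group mean FPKM (y axis, logarithmic) of Igfbp7 and the 3 genes most like it in the 8 groups (x axis; co, coculture; mono, monoculture; −SG and +SG, without and with serine and glycine). Each gene has its lowest mean in the serine/glycine-free KO monocultures and a higher mean in every WT group than in any KO group.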

How the data were processed

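A column kit was used for RNA and a commercial company sequenced it, per the labels' protocols. Per the submitters' processing notes, alignment was with HISAT2 to GRCm38 (mm10). The sources used here do not give the counter, annotation or use of strand. The authors deposited FPKM for 54532 genes in 24 libraries. FPKM multiplied by gene length gave whole reads (100% of values within 0.01 read), and each library had been scaled to 0.969 to 1.07 times its own total, for a reason not stated in the labels.

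The 12061 genes that reached an FPKM of 1 in 3 or more libraries were fitted as log2(FPKM + 1), which understates changes of low genes, with limma 3.58.1 (moderated test with trend, two-sided, R 4.3.3) in 1 model of the 24 libraries with 8 means (16 residual degrees of freedom). P-values were adjusted by Benjamini-Hochberg over all tested genes, and genes were called under 0.05. Values after ± are SEs for log2 changes and SDs for FPKM. Fold values are ratios of mean FPKM. An interaction is the difference between 2 changes. Alternatives were pseudocounts of 0.1 and 0.5, no filter and a stricter one, quantile and median-of-ratios scaling, only the groups compared, a replicate block, leaving out each library, and limma voom on recovered reads (scaled by the trimmed mean of M values). Leaving out both libraries that stood apart was added after seeing the data.

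The genes and lists were chosen with earlier results of these data known. All 8 IGF genes are named everywhere, with up to 6 called genes of the pathway lists per comparison, those with the largest log2 change, Insr as a tested ligand partner, and for 4 genes those most like them over the 8 group means. Insr was chosen after its values were seen where it was not among the 6. Igf2bp3 is named because it passed the filter only through KO libraries, and Pappa and Pappa2 because PAPP-A is referred to above. The labels do not say that replicates were separate cultures, so p-values only reflect the spread among these libraries, and that may be technical. Deviations of libraries with the same replicate number correlated most strongly in withdrawal in KO monoculture (0.401, 0.276 and 0.114 across genes). In coculture in serine/glycine-free KO cells the correlations were negative (−0.340, −0.256 and −0.0097). Neither comparison had a test. These values come from the data, not from the labels. Scripts were tested on simulated data. Promoters came from RefSeq (8 of 8 genes matched).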

Additional observations from a re-analysis of the deposited data

Results flagged for a closer look

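In 6 results an effect differed between groups by limma's test of the difference itself. The rise of Igfbp3 in coculture with serine and glycine was 1.15 larger in KO than in WT cells on the log2 scale. In coculture the withdrawal change in KO cells less that in WT cells was −0.55 for Igfbp7, −0.77 for Igfbp4 and 0.45 for Igf2r. The call was lost in 5 of 22 alternatives for Igfbp7 and in 10 of 22 for Igfbp4, and in 0 of 22 for Igf2r. In WT cells the withdrawal change in coculture less that in monoculture was −0.52 for Igf2r and −0.47 for Igf1r.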

How the results depend on the processing

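Of 36 calls for the 5 tested genes, 31 held in every alternative run, and of 1050 alternative values 1003 kept their direction and side of the threshold. The 15 that changed sign were all near 0 and not called. Igfbp4 on withdrawal in WT monoculture was 0.0064 with median-of-ratios scaling and 0.060 with quantile normalization, where Igfbp7 was 0.069. The difference between coculture changes for Igf1r was 0.020 with voom and 0.017 with a pseudocount of 0.1. With libraries left out one at a time, the withdrawal change ranged from −0.042 to 0.038 for Igfbp4 in WT monoculture, from −0.052 to 0.029 in WT coculture, and from −0.045 to 0.0041 for Igfbp7 in WT monoculture. The difference between the withdrawal changes in WT coculture and monoculture ranged from −0.052 to 0.019 for Igfbp3 and from −0.056 to 0.033 for Igfbp4. With libraries left out in the same way, the number of the 5 genes called ranged from 1 to 2 for coculture in serine/glycine-free WT cells, and was 3 there with quantile normalization or only the groups compared. It ranged from 1 to 4 for the withdrawal difference between genotypes. The described log2 change of Igfbp7 in serine/glycine-free monoculture of KO against WT was −8.22 with voom, −8.10 with a pseudocount of 0.1 and −7.63 with 0.5. On withdrawal in KO monoculture it was −5.08, −4.93 and −4.48 in that order, and −3.94 with quantile normalization. For coculture in serine/glycine-free KO cells it was 4.54, 4.42 and 3.98, and 3.42 with quantile normalization. The cause was not tested. With a replicate block 60 of 60 tested values kept their direction and call. A planned quasi-likelihood count test is not reported, since the deposited unit is FPKM.

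Counts of calls over all genes moved by over 1.5 times for withdrawal in WT monoculture (196, lowest 62 without replicate 3 of the serine/glycine-free libraries, highest 518 without the 2 libraries that stood apart), in WT coculture (89, lowest 4 with only the groups compared, highest 241) and the difference between them (201, from 100 to 552). They also moved for withdrawal in KO coculture (3607, from 1820 to 4619) and its difference from WT (1742, lowest 1076 without replicate 2 and highest 3080 without replicate 1 of the serine/glycine-free KO cocultures). With only the groups compared they were 769 against 1251 for the genotype by coculture difference, 3165 against 5145 for KO against WT in monoculture with serine and glycine, and 2840 against 4824 for coculture in KO cells with them. Low reads limit Igfbp2, Igfbp5 and Igfbp6.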
